A study of Homo sapiens with 16 samples.

Results

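The transcripts described here are those of 10 genes, *FOS*, *FOSB*, *FOSL1*, *FOSL2*, *JUN*, *JUNB*, *JUND*, *ATF3*, *EGR1* and *IER2*, among the 62703 genes of the count table. They were picked by name, as genes of the transcription factor AP-1 or its immediate early companions. The rule applies no measured value, but earlier results of these data were known when the genes were chosen. Shares of members that changed, set beside all genes, are therefore a description. Of the 10, 9 passed the expression filter together with the other genes that make up the 10566 tested, and *FOSB* did not. Their mRNA was measured in 16 libraries of spheroids from 3 prostate cancer cell lines, made by BRB-seq, a pooled, barcoded assay that reads only the 3′ end of each mRNA. LNCaP cells are androgen-dependent and enzalutamide-sensitive, 22Rv1 cells are androgen-responsive but enzalutamide-resistant, and PC3 cells do not respond to androgen or to the drug. In every group the cells received 25 pmol of a pool of siRNAs, either nontargeting (siCtrl) or against MED12 (siMED12), a subunit of the Mediator kinase module. Cells stayed in 2D culture for 3 days and then 4 days as spheroids, 7 days after transfection in all, so siCtrl is a transfected control and no untreated cells were compared. There were 3 libraries in each siCtrl group and in LNCaP siMED12, and 2 libraries, numbered 1 and 3, in 22Rv1 siMED12 and in PC3 siMED12.

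AP-1 is a dimer of basic leucine zipper proteins. A Jun protein pairs with another Jun protein, with a Fos protein, or with an ATF family protein such as ATF3, and the dimer binds short DNA motifs at promoters and enhancers. *FOS*, *FOSB*, *JUNB*, *EGR1* and *IER2* are classical immediate early genes, transcribed within minutes of a growth factor or stress signal and then shut off, whereas *JUND* is expressed steadily in many cell types and *FOSL1* accumulates under sustained MAP kinase signalling. The Mediator kinase module has long been studied at the promoters of such signal-responsive genes.

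Total counts ran from 479118 to 993807 per library, with a median of 764494. Levels are given as CPM, counts scaled to the size of the library, after TMM scaling. A 3′ tag library counts 1 end per transcript, so CPM was not divided by transcript length, also where 2 genes are compared. A count of 0 allowed up to 3 counts, or 3.15 to 6.22 CPM depending on the library, and this floor covers counting error only. *MED12* itself was at 9.94 to 12.9 CPM in LNCaP siCtrl and 6.67 to 10.3 in LNCaP siMED12, at 16.7 to 23.4 and 7.42 to 8.98 CPM in 22Rv1, and at 8.41 to 28.4 and 14.5 to 15.8 CPM in PC3. Its groups overlapped in LNCaP and PC3, and no fall of *MED12* passed the edgeR quasi-likelihood test (Benjamini-Hochberg adjusted p of 0.878, 0.175 and 0.987). With 5 to 22 counts of *MED12* per library, these data cannot settle how far it fell. The paper reports from its own separate measurement that the knockdown was highly efficient in spheroids. In LNCaP and PC3 the libraries are called siMED12 by their label. Markers of the androgen-responsive lines summed to 5192 to 6021 CPM in LNCaP siCtrl, 627 to 699 CPM in 22Rv1 siCtrl and 90.4 to 132 CPM in PC3 siCtrl, and markers of PC3 were highest in PC3 siCtrl, at 2442 to 3328 CPM. Markers of another line stood out in 3 libraries. In 22Rv1 siMED12 replicate 3 a set of 26 genes that mark PC3 was at 4.89% of its PC3 level, against 0.372% to 1.42% in the other LNCaP and 22Rv1 libraries. In PC3 siMED12 replicate 3, LNCaP markers were at 3.17% of their LNCaP level (0.412% to 0.622% in the other PC3 libraries), and in PC3 siCtrl replicate 3, 22Rv1 markers were at 2.73% (0.198% to 0.384%). In bulk libraries, fewer cells of a kind and less RNA per cell cannot be told apart.

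Under siMED12 the clearest change lay in LNCaP, where *JUND*, *ATF3* and *FOS* fell and no member rose. *JUND* dropped by 56.3%, *ATF3* dropped by 68.9% and *FOS* dropped by 88.0%. They were 3 of the 7 members above the counting floor in that line, or of the 9 tested. Of all tested genes, with those at the floor included, 0.416% changed in LNCaP and 0.369% fell. In 22Rv1 none of 9 and in PC3 none of 8 members above the floor passed the test, beside 1.84% and 0% of all tested genes. In LNCaP 6 of the 7 had a log2 fold change below 0, with a median of -0.77 beside -0.0021 over all genes above the floor. In 22Rv1 6 of 9 were below 0, with a median of -0.14 beside 0.0024, and in PC3 6 of 8, with a median of -0.12 beside -0.0415. The 9 in 22Rv1 include *FOSL1*, counted above 0 on 14 counts in siMED12 replicate 3, the library with PC3 markers. Its direction is not read, as described below. The plot of levels by library shows each of these values.

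**Figure D1:**
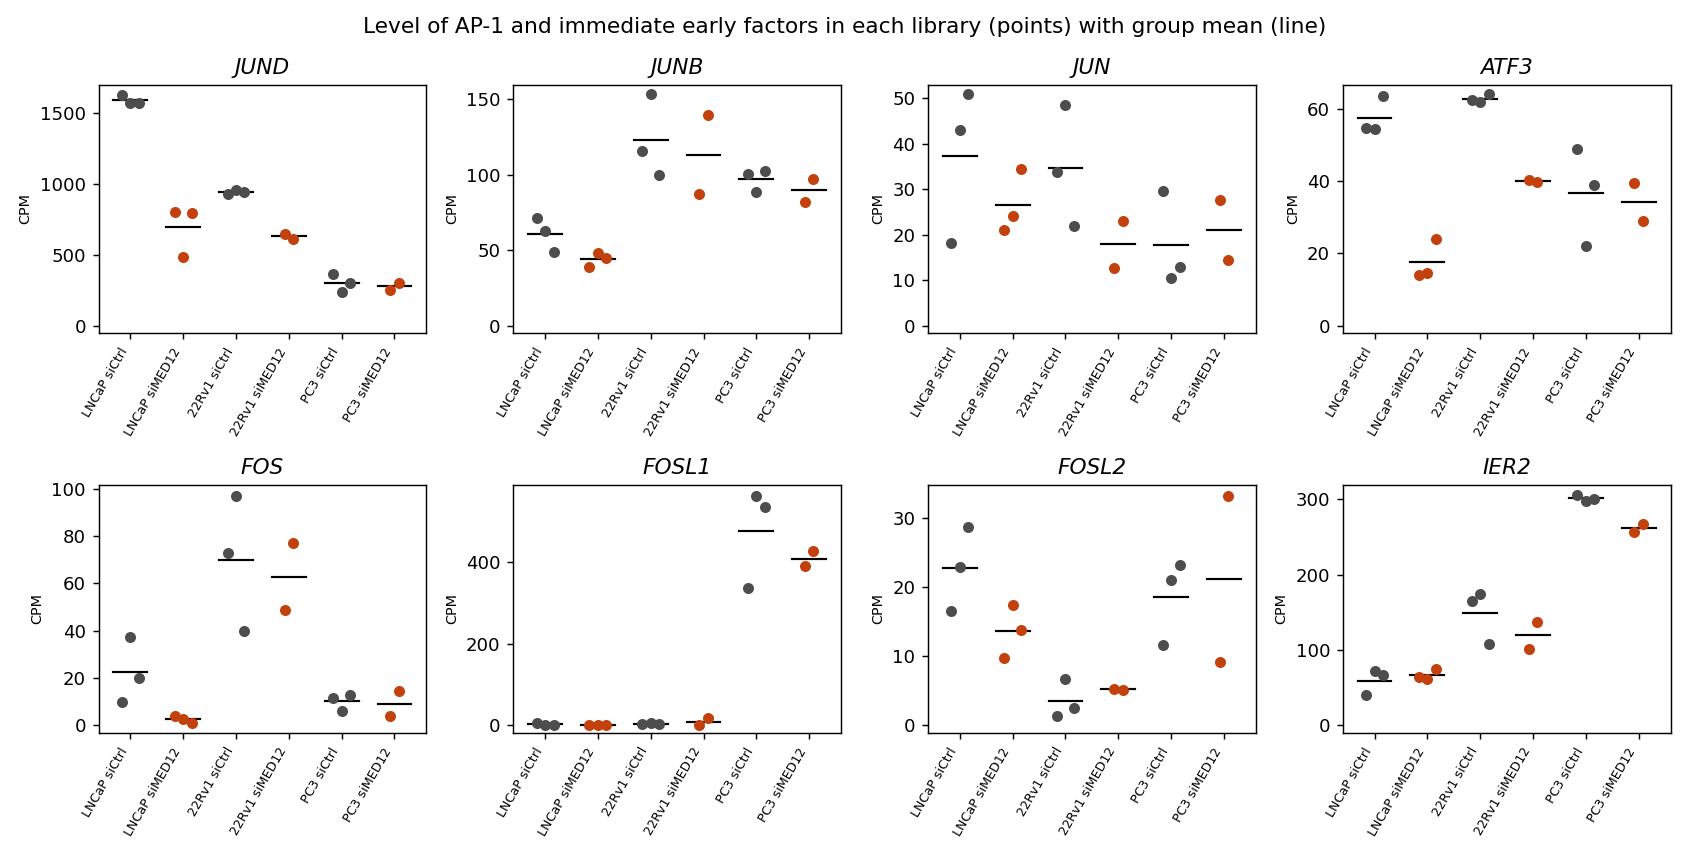
Level in CPM (linear axis) of 8 members in each of the 16 libraries, with siCtrl libraries in grey, siMED12 libraries in orange and the mean of each group as a line. *JUND* and *ATF3* in LNCaP siMED12 lie below every LNCaP siCtrl library, *FOSL1* is high in the PC3 libraries alone, and *IER2* rises from LNCaP to PC3.

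Among the Fos proteins, *FOS* (c-Fos, the founding immediate early partner of Jun) was at 9.94, 37.2 and 20.1 CPM in LNCaP siCtrl and at 4.20, 2.67 and 1.15 CPM in LNCaP siMED12. These are 6, 26 and 19 counts against 3, 2 and 1 counts, so the groups did not overlap but the siMED12 libraries were at the counting floor. The log2 fold change was -3.06 (95% confidence interval -4.38 to -1.75), and the adjusted p of the edgeR quasi-likelihood test with Benjamini-Hochberg adjustment was 0.0158. Read as summed counts, 51 against 6, the control level was 8.84 times the siMED12 level, with an exact counting interval of 3.79 to 25.2. The exact counting intervals given here and below cover counting error only and leave out the spread between libraries. The call was lost, with adjusted p from 0.0656 to 0.238, when siCtrl replicate 2, siCtrl replicate 3, siMED12 replicate 2 or siMED12 replicate 3 was left out, and over all 6 such fits the log2 fold change lay between -3.49 and -2.55.

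In 22Rv1, *FOS* was at 72.9, 96.9 and 39.8 CPM in siCtrl and at 48.8 and 77.0 CPM in siMED12, and the groups overlapped. The log2 fold change there was -0.14 (95% interval -0.74 to 0.47). PC3 held little *FOS*, 6.31 to 13 CPM in siCtrl and 3.96 and 14.5 CPM in siMED12. The difference of the *FOS* effect between 22Rv1 and LNCaP was 2.92 on the log2 scale, with an adjusted p of 0.106 by the edgeR quasi-likelihood test. The replicate number as a block pairs the libraries of every line by number, and 22Rv1 siCtrl replicate 2 then has no partner. With that block the *FOS* value in 22Rv1 was 0.14, and the difference passed, at 3.19 (adjusted p = 0.00844, edgeR quasi-likelihood). In 22Rv1 the numbers were not taken as pairing, so that pass is a description only. In the main fit, with the filter, all 16 libraries and no block, no member passed the test of a difference between lines. That fit called 0.189% of genes between 22Rv1 and LNCaP, 0.0284% between PC3 and LNCaP and 0.0946% between PC3 and 22Rv1. Without the filter *FOS* passed between 22Rv1 and LNCaP.

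*FOSL1* (Fra-1), a Fos protein without the transactivation domain of c-Fos, was the member most unequal between the lines. It stood at 335, 560 and 533 CPM in PC3 siCtrl and at 0 to 6.63 CPM in the LNCaP libraries. In PC3 it made up 93.2% to 95.4% of all Fos family counts of the siCtrl libraries, while *FOS* made up 81.6% to 91.8% in 22Rv1 siCtrl. Against LNCaP siCtrl the log2 difference was 7.39 ± 0.39 (SE) and against 22Rv1 siCtrl 6.94 ± 0.37, with adjusted p of 1.33e-17 and 2.97e-17 by the edgeR quasi-likelihood test. The LNCaP controls held 4, 0 and 2 *FOSL1* counts, and the LNCaP value was 6.89 without siCtrl replicate 2 and 8.44 without siCtrl replicate 1. As summed counts, 1162 against 6 and against 8, the PC3 level was 180 times that of LNCaP (exact counting interval 82.4 to 491) and 129 times that of 22Rv1 (65.2 to 299). Under siMED12 the PC3 level was 389 and 425 CPM, inside the range of the controls, with a log2 fold change of -0.23 (95% interval -0.66 to 0.19).

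Outside PC3, *FOSL1* was near the floor, with 0 to 4 counts in each LNCaP library and 0 to 3 counts in each 22Rv1 library but 1. That library was 22Rv1 siMED12 replicate 3, with 14 counts or 18.0 CPM, which is 3.77% of the PC3 siCtrl mean in the library where PC3 markers were at 4.89%. LNCaP siCtrl replicate 1 held 4 counts, 1.39% of the PC3 mean, beside PC3 markers at 1.42%. Taking the excess of other lines, estimated from their markers, off the counts left *FOSL1* at 0 in 22Rv1 siMED12 replicate 3. The log2 value of 1.10 between siMED12 and siCtrl in 22Rv1, with an adjusted p of 0.672, is therefore given without a direction, and after that subtraction both groups were at the floor.

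**Figure D2:**
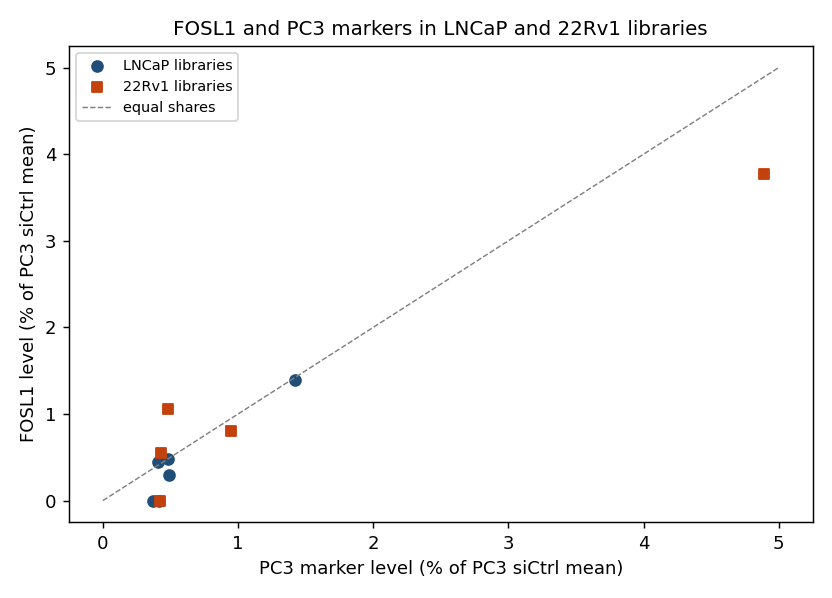
*FOSL1* level against the level of 26 PC3 marker genes in the 11 LNCaP and 22Rv1 libraries, both in percent of the PC3 siCtrl mean; the dashed line marks equal shares. 22Rv1 siMED12 replicate 3 lies alone at 4.89% and 3.77%.

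*FOSL2* (Fra-2), the other Fos protein without that domain, was lowest in 22Rv1 among the control lines, at 16.6, 22.9 and 28.6 CPM in LNCaP, 11.6, 21.0 and 23.1 CPM in PC3 and 1.30, 6.69 and 2.57 CPM in 22Rv1. The LNCaP and PC3 ranges overlapped and both lay above 22Rv1. Under siMED12 it was at 9.79, 17.3 and 13.8 CPM in LNCaP, overlapping the controls in a single library, with a log2 fold change of -0.77 (95% interval -1.55 to 0.01; adjusted p = 0.678, edgeR quasi-likelihood). In 22Rv1 siMED12 *FOSL2* was at 5.30 and 5.13 CPM and in PC3 siMED12 at 9.23 and 33.2 CPM, overlapping the controls in both. *FOSB* had 0 to 3 counts in every library, and no fold is given for it.

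The Jun proteins were carried by *JUND*, which gave 93.7% to 94.8% of Jun family counts in LNCaP siCtrl, 82.6% to 88.5% in 22Rv1 siCtrl and 70.4% to 73.8% in PC3 siCtrl. JunD is regarded as the slow, steadily expressed Jun protein. It was at 1632, 1577 and 1571 CPM in LNCaP siCtrl and at 802, 487 and 797 CPM in LNCaP siMED12. The siMED12 libraries lay far below the controls, and replicate 2 was the lowest. The log2 fold change was -1.20 ± 0.14 (SE), with an adjusted p of 5.43e-06 by the edgeR quasi-likelihood test. It kept its call without any 1 of the 6 LNCaP libraries.

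In 22Rv1, *JUND* was at 929, 959 and 942 CPM in siCtrl and at 651 and 612 CPM in siMED12. The groups again did not overlap, with siMED12 below, as held for 12.9% of all tested genes in 22Rv1. The log2 fold change was -0.58 ± 0.16 (SE) with an adjusted p of 0.0570 (edgeR quasi-likelihood), which missed the threshold. It passed when genes with low counts were not removed, when the 22Rv1 libraries were fitted alone and with the replicate block (log2 -0.57, adjusted p = 0.0105), and over all 13 alternatives the adjusted p ran from 0.00876 to 0.283. In PC3, *JUND* was at 366, 235 and 301 CPM in siCtrl and at 256 and 305 CPM in siMED12, with overlapping groups and a log2 fold change of -0.11 (95% interval -0.48 to 0.27). It was -0.22 without PC3 siMED12 replicate 3, the library with LNCaP markers at 3.17%, and -0.17 when the excess of other lines was taken off the counts. The effect differed between PC3 and LNCaP by 1.09 ± 0.23 (SE) in log2, with an adjusted p of 0.128 in the same test. That difference passed without PC3 siCtrl replicate 1, and with the replicate block, at 0.95 (adjusted p = 0.0203, edgeR quasi-likelihood). The block pairs 22Rv1 and PC3 by number too, where the numbers were not taken as pairing. It leaves siCtrl replicate 2 of both lines without a partner.

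*JUND* lies on chromosome 19 at 18279694 to 18281622 of GRCh38, on the minus strand, in a single exon, and *JUN* and *JUNB* are single-exon genes too. Single-exon genes make up 5.62% of 19701 canonical protein-coding transcripts. The *JUND* transcript has a GC content of 69.9%, above 99.5% of those transcripts, against 52.8% in *FOS* and 50.4% in *ATF3*. *FOS* lies on chromosome 14 at 75278826 to 75282230, on the plus strand, in 4 exons.

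The promoters of *JUND* and *FOS* are shown as those of a Jun gene and a Fos gene that fell in LNCaP. *ATF3* fell there as well, but its 2 windows are not shown. Each run is the 250 bases before the RefSeq start on GRCh38.p14, 5′ to 3′ on the strand of the gene, at chr19:18281623-18281872 (minus) and chr14:75278578-75278827 (plus). Capitals mark a cyclic AMP response element (CRE, TGACGTCA) in *JUND* and a TATA box (TATAAA) in *FOS*.
JUND: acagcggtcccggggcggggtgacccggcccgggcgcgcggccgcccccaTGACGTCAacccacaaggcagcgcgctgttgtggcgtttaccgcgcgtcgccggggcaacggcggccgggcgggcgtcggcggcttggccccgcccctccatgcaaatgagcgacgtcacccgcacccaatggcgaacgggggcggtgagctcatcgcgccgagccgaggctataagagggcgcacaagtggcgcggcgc
FOS: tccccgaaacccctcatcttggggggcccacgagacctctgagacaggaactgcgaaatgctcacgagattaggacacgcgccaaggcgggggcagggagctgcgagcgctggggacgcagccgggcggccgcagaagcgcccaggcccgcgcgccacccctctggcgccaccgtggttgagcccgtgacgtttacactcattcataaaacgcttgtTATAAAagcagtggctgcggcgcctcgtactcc
The CRE begins 200 bases before the start of *JUND*, and the TATA box 33 bases before that of *FOS*. On either strand a CRE was found in 1.65% of 35116 windows of this length and a TATA box in 10.7%. Windows were given for 9 members, with 2 for *ATF3* and none for *FOSL1*. The AP-1 site TGANTCA, present in 6.57% of all windows, was in no member window, while *EGR1* held 2 CArG boxes, the motif bound by serum response factor, which 1.16% of windows hold. A match or its absence describes these letters only.

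*JUNB*, which dampens c-Jun in many settings, was at 71.2, 63.0 and 48.8 CPM in LNCaP siCtrl and at 39.2, 48.0 and 44.8 CPM in LNCaP siMED12. The groups did not overlap, but the log2 fold change of -0.44 (95% interval -0.92 to 0.04) had an adjusted p of 0.728 by the edgeR quasi-likelihood test. In LNCaP 4 of the 7 members above the floor, or of the 9 tested, had every siMED12 library below every control. These were *JUND*, *ATF3*, *FOS* and *JUNB*, and 6.75% of all tested genes did so too. In 22Rv1 *JUNB* was at 116, 154 and 100.1 CPM in siCtrl and 86.9 and 139.8 CPM in siMED12, and in PC3 at 88.3 to 102.6 and 81.8 to 97.5 CPM, with overlap in both lines. *JUN*, which encodes c-Jun, scattered widely, at 18.2, 43 and 50.9 CPM in LNCaP siCtrl and 21.0, 24.0 and 34.5 CPM in LNCaP siMED12. In 22Rv1 it was at 33.8, 48.5 and 21.8 CPM in siCtrl and 12.7 and 23.1 CPM in siMED12, again with overlap and an adjusted p of 0.359 for a log2 fold change of -0.94 (edgeR quasi-likelihood). The PC3 ranges overlapped as well, at 10.5 to 29.7 CPM in siCtrl and 14.5 to 27.7 CPM in siMED12. Summed over the 3 Jun genes, the level was 1692 ± 26.6 CPM (SD, n = 3) in LNCaP siCtrl and 766 ± 179 CPM (SD, n = 3) in LNCaP siMED12. *JUND* alone made up most of that sum in both groups, with a share of 87.1% to 93.0% under siMED12.

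**Figure D3:**
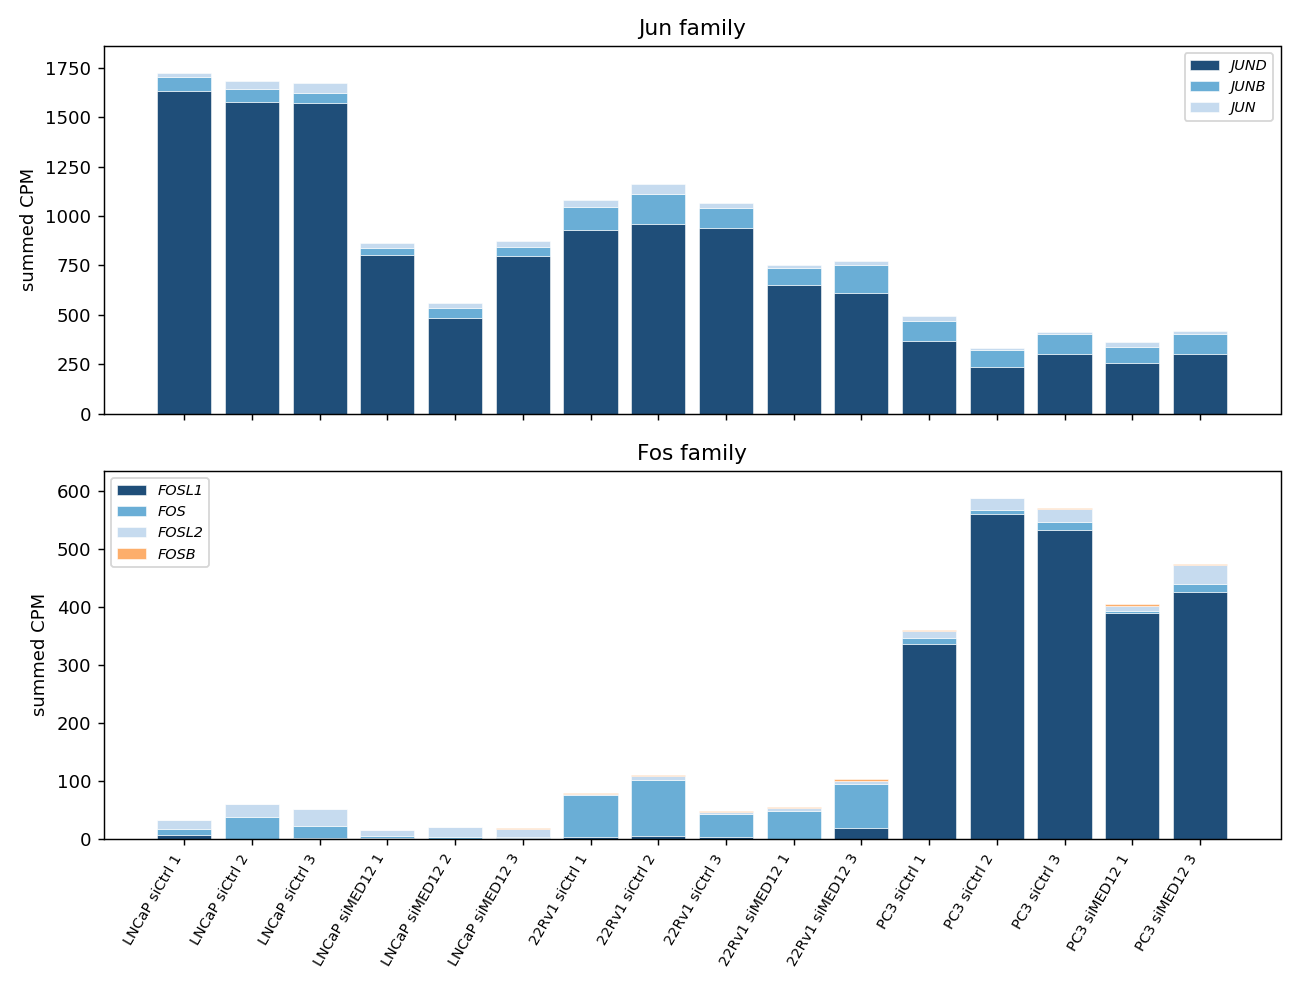
Summed CPM of the Jun family (top) and of the Fos family (bottom) in each of the 16 libraries, stacked by gene. *JUND* fills most of every Jun bar, and *FOSL1* fills nearly the whole Fos bar in the 5 PC3 libraries.

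*ATF3*, a stress-induced partner of Jun proteins, was at 54.7, 54.4 and 63.6 CPM in LNCaP siCtrl and at 14.0, 14.7 and 24.1 CPM in LNCaP siMED12. Every siMED12 library lay well below every control, and the log2 fold change of -1.69 ± 0.27 (SE) had an adjusted p of 8.69e-04 by the edgeR quasi-likelihood test. The call held without any 1 of the 6 LNCaP libraries. In 22Rv1 the level went from 62.5, 61.8 and 64.2 CPM in siCtrl to 40.3 and 39.8 CPM in siMED12. Here too the groups were separate, and *JUND* and *ATF3* were the 2 of 9 members with siMED12 below in 22Rv1, beside 12.9% of all tested genes, but the log2 fold change of -0.65 ± 0.26 (SE) had an adjusted p of 0.251 in the same test. In PC3, *ATF3* was at 49.0, 22.1 and 39.0 CPM in siCtrl and 39.6 and 29.0 CPM in siMED12, a log2 fold change of -0.02 (95% interval -0.65 to 0.60). The difference of its effect between PC3 and LNCaP, 1.66 in log2, had an adjusted p of 0.461 (edgeR quasi-likelihood).

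The zinc finger factor *EGR1* was seen mainly in 22Rv1, at 14.3, 23.4 and 6.42 CPM in siCtrl and 15.9 and 16.7 CPM in siMED12, with overlapping groups. LNCaP held 1 count in its 3 control libraries together, against 30 counts in 22Rv1 siCtrl, a ratio of 31.4 with an exact counting interval of 5.22 to 1280. That interval leaves out the spread between the 22Rv1 controls. PC3 siCtrl held 1 or 2 counts per library, so no fold under siMED12 is given for LNCaP or PC3.

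*IER2*, an immediate early regulator without a basic leucine zipper, rose across the lines, at 39.8, 71.6 and 66.8 CPM in LNCaP siCtrl, 165, 174 and 108 CPM in 22Rv1 siCtrl and 306, 298 and 301 CPM in PC3 siCtrl. These ranges did not overlap. Under siMED12 it was at 64.3, 61.4 and 74.7 CPM in LNCaP, with a log2 fold change of 0.15 (95% interval -0.30 to 0.59), which became -0.0208 without siCtrl replicate 1. In 22Rv1 siMED12 it was at 101.8 and 137 CPM, overlapping the controls, with a log2 fold change of -0.32 (95% interval -0.72 to 0.08). In PC3 the siMED12 libraries, at 256 and 268 CPM, lay just below the controls, as held for 11.9% of all tested genes, and the log2 fold change of -0.21 had an adjusted p of 0.978 (edgeR quasi-likelihood).

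**Figure D4:**
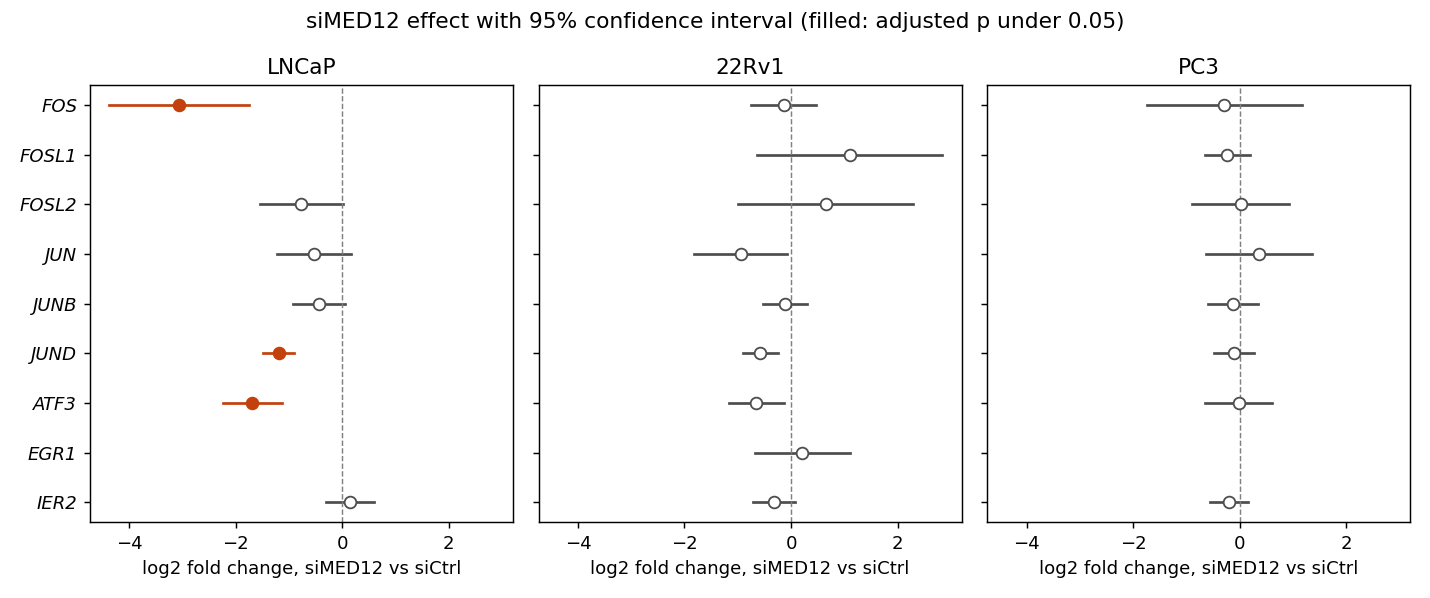
Log2 fold change of siMED12 against siCtrl with its 95% confidence interval for the members in each line; filled orange points have an adjusted p under 0.05, and members with both groups at the counting floor are left out. The filled points are *FOS*, *JUND* and *ATF3* in LNCaP.

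The control lines differed in most members above the floor. Between 22Rv1 and LNCaP 6 of the 8 members above the floor, or of the 9 tested, passed the edgeR quasi-likelihood test. Of all tested genes 43.2% passed. *FOS*, *JUNB*, *EGR1* and *IER2* were higher in 22Rv1, and *FOSL2* and *JUND* lower. Between PC3 and LNCaP 7 of 8, or of the 9 tested, passed, beside 54.7%, with *FOSL1*, *JUNB* and *IER2* higher in PC3 and *ATF3*, *FOS*, *JUN* and *JUND* lower. That count was 4 without LNCaP siCtrl replicate 3, when *ATF3*, *JUN* and *JUNB* were lost, and 4 without PC3 siCtrl replicate 2, when *ATF3*, *FOS* and *JUN* were lost, with adjusted p of 0.0574 to 0.182 (edgeR quasi-likelihood). Between PC3 and 22Rv1 8 of 9 passed, beside 54.9%, with *FOSL1*, *FOSL2* and *IER2* higher in PC3 and *ATF3*, *FOS*, *JUN*, *JUND* and *EGR1* lower. Of these, *ATF3* was lost without PC3 siCtrl replicate 2 (adjusted p = 0.0610), and *JUN* without 22Rv1 siCtrl replicate 1 or 2 or PC3 siCtrl replicate 2 or 3 (0.0727 to 0.197), the last of these being the library with 22Rv1 markers at 2.73%, while *JUNB* passed without 22Rv1 siCtrl replicate 3 (edgeR quasi-likelihood).

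*JUND* was 5.32-fold lower in PC3 siCtrl than in LNCaP siCtrl (adjusted p = 8.81e-15, edgeR quasi-likelihood), and its 3 control ranges were fully separate. *FOS* was 2.99-fold higher in 22Rv1 than in LNCaP (adjusted p = 2.13e-04) and 6.76-fold lower in PC3 than in 22Rv1 (adjusted p = 2.95e-07) in that test. The *FOS* difference between PC3 and LNCaP, -1.18 in log2 with an adjusted p of 0.0360, was also lost without LNCaP siCtrl replicate 2 (adjusted p = 0.311). Some control differences also depended on the method. Over all 13 alternatives, by method or library left out, that *FOS* call was lost in 4. The *ATF3* call between PC3 and LNCaP was lost in 3, and the *JUN* call between PC3 and 22Rv1 in 5.

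Ordered by mean level over the 6 groups, *JUND* ran from LNCaP siCtrl and 22Rv1 siCtrl through LNCaP siMED12 and 22Rv1 siMED12 to the 2 PC3 groups. In that order LNCaP siMED12 overlapped 22Rv1 siMED12, and PC3 siCtrl overlapped PC3 siMED12. *ATF3* was highest in 22Rv1 siCtrl and LNCaP siCtrl, which overlapped, and lowest in LNCaP siMED12, where its highest library (24.1 CPM) lay below every library of the other groups except PC3 siCtrl replicate 2 (22.1 CPM). *FOS* was highest in the 2 overlapping 22Rv1 groups, and from LNCaP siCtrl down each group overlapped its neighbour. *JUN* groups all overlapped their neighbours, and *JUNB* separated only between PC3 siMED12 and LNCaP siCtrl and between LNCaP siCtrl and LNCaP siMED12.

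Over the 16 libraries, after the mean of each line was taken off, *ATF3* and *JUND* varied together (Pearson r = 0.92 across libraries, a description only, since the libraries share lines and the siMED12 groups). The *ATF3* and *FOS* value was 0.65. Among the 6713 genes whose mean reached 20 CPM, those most like *JUND* were *GPR153* (r = 0.92 over 16 libraries), *LDHA* (0.92), which encodes the lactate dehydrogenase A subunit, and *BNIP3* (0.92), a mitophagy receptor induced by low oxygen. Those most like *ATF3* included *GPR153* (0.87) and *FTH1P8* (0.85), a ferritin pseudogene whose reads its parent gene can share. Those most like *FOS* were *DDX54* (0.84), an RNA helicase gene, *HILPDA* (0.83), a lipid droplet gene, and *CLK3* (0.82), a splicing factor kinase gene.

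Some other immediate early genes also fell in LNCaP and 22Rv1. Of 38 listed, 32 were tested. This list and those that follow were also chosen with earlier results of these data known. In LNCaP 4 of 32 fell and none rose, beside 0.416% of all tested genes called, and the median log2 fold change of the 29 above the floor was -0.48 against -0.0021 over all genes above it. The 4 were *GADD45G* (-1.06), a growth arrest gene, *PHLDA1* (-1.06), *DUSP1* (-0.88), a MAP kinase phosphatase, and *MYC* (-0.65). In 22Rv1 6 of 32 fell and none rose, beside 1.84% of all tested genes called, with a median of -0.30 against 0.0024 over all genes. These were *IER5L* (-1.57), *DUSP1* (-1.17), *DUSP2* (-1.09), *MYC* (-0.88), *BTG1* (-0.79), an antiproliferative gene, and *MCL1* (-0.61), an antiapoptotic gene. *DUSP1* and *MYC* fell in both lines. In PC3 none of 32 passed, with a median of -0.03 against -0.0415 over all genes, and there the edgeR quasi-likelihood test called 0 genes of 10566 at all, with 527 at an unadjusted p under 0.05, while limma called 1 and DESeq2 0.

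These calls leaned on single libraries and in part on the method. In LNCaP, *GADD45G* lost its call without siCtrl replicate 2 or 3 or siMED12 replicate 1 or 2, *PHLDA1* without siCtrl replicate 2 or 3 or siMED12 replicate 2, *DUSP1* without any LNCaP library but siMED12 replicate 1, and *MYC* without siCtrl replicate 1 or 2 or siMED12 replicate 1 or 2. The adjusted p were then 0.0532 to 0.550 (edgeR quasi-likelihood). In 22Rv1, *IER5L* lost it without siCtrl replicate 2 or either siMED12 library, *DUSP1* without siCtrl replicate 3 or siMED12 replicate 1, *DUSP2* without siCtrl replicate 3 or siMED12 replicate 3, *BTG1* and *MYC* without siMED12 replicate 1, and *MCL1* without siCtrl replicate 2 or 3 or siMED12 replicate 1. The adjusted p were then 0.0510 to 0.572 in the same test. *DUSP1* in LNCaP also missed the threshold with the legacy form of edgeR (adjusted p = 0.0625), DESeq2 (0.186), limma (0.171) and the LNCaP libraries alone (0.0906). *GADD45G* missed it with DESeq2 (0.188) and limma (0.395), and *PHLDA1* with limma (0.0512). *MCL1* in 22Rv1 missed it with relative log expression scaling (0.0502), the legacy form (0.0639), DESeq2 (0.122), limma (0.121), the 22Rv1 libraries alone (0.0702) and carry-over subtraction (0.0675). Each kept its sign.

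Partners outside the 10 members moved in both directions. Of 14 listed basic leucine zipper partners 11 were tested. In LNCaP *DDIT3*, which encodes the stress factor CHOP, went from 46.4, 96.0 and 113 CPM in siCtrl to 44.8, 33.4 and 28.7 CPM in siMED12, a log2 fold change of -1.32 with an adjusted p of 0.0259 (edgeR quasi-likelihood). *MAF*, a large Maf protein, went from 16.6, 10.0 and 3.18 CPM to 30.8, 56.0 and 23.0 CPM, a log2 fold change of 1.99 with an adjusted p of 0.0235 in that test. Both groups were separate, but *DDIT3* lost its call without siCtrl replicate 2 or 3 or siMED12 replicate 2 or 3 (0.153 to 0.418), and *MAF* without siCtrl replicate 2 or 3 or siMED12 replicate 2 (0.139 to 0.505). *DDIT3* also missed the threshold with DESeq2 (0.0807) and limma (0.292), and *MAF* with the legacy form of edgeR (0.0625) and limma (0.112). None of the 11 passed in PC3, where 0% of all tested genes passed, against 0.416% in LNCaP. The median over the 10 above the floor was -0.22 in LNCaP, -0.13 in 22Rv1 and 0.21 in PC3. Over all genes above the floor it was -0.0021, 0.0024 and -0.0415.

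Of 24 listed genes upstream of these factors, 22 were tested and none passed in any line. The list held MAP kinases, their kinases, serum response factor and its cofactors, CREB and the ligases that degrade c-Jun. Calls over all tested genes came to 0.416% (LNCaP), 1.84% (22Rv1) and 0% (PC3). With shares this low, a list of 22 may hold no call by its size alone. The absence of calls therefore does not show that these genes were unchanged. The list medians were -0.11 in LNCaP, 0.04 in 22Rv1 and -0.04 in PC3, beside -0.0021, 0.0024 and -0.0415 over all genes above the floor.

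Of 27 genes named in textbooks as AP-1 targets, 18 were tested. None passed in LNCaP or PC3, where 0.416% and 0% of all tested genes passed. In LNCaP 8 were above the floor, with a median of -0.37 beside -0.0021 over all such genes. In 22Rv1 11 were, with a median of 0.23 beside 0.0024. In 22Rv1 *PLAU*, the urokinase gene, and *LAMB3*, a laminin chain gene, passed as higher, as did 0.994% of all tested genes. *PLAU* was at 19.5, 18.4 and 20.5 CPM in siCtrl and at 15.9 and 149 CPM in siMED12, where the single high library was replicate 3, the one with PC3 markers at 4.89%. Without that library the log2 fold change was -0.30 in place of 2.00, and -0.56 when the excess of other lines was taken off the counts. *PLAU* also lost its call without any 1 of the 22Rv1 siCtrl libraries and with DESeq2, limma or the line alone (adjusted p of 0.164, 0.253 and 0.0577). *LAMB3* had 1, 0 and 0 counts in siCtrl and 5 and 10 counts in siMED12, a ratio of 18.7 with an exact counting interval of 2.87 to 787, and it did not pass with DESeq2 (adjusted p = 0.0647), after the subtraction (0.166, edgeR quasi-likelihood), without siMED12 replicate 3 (0.278), or without siCtrl replicate 2 or 3.

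**Figure D5:**
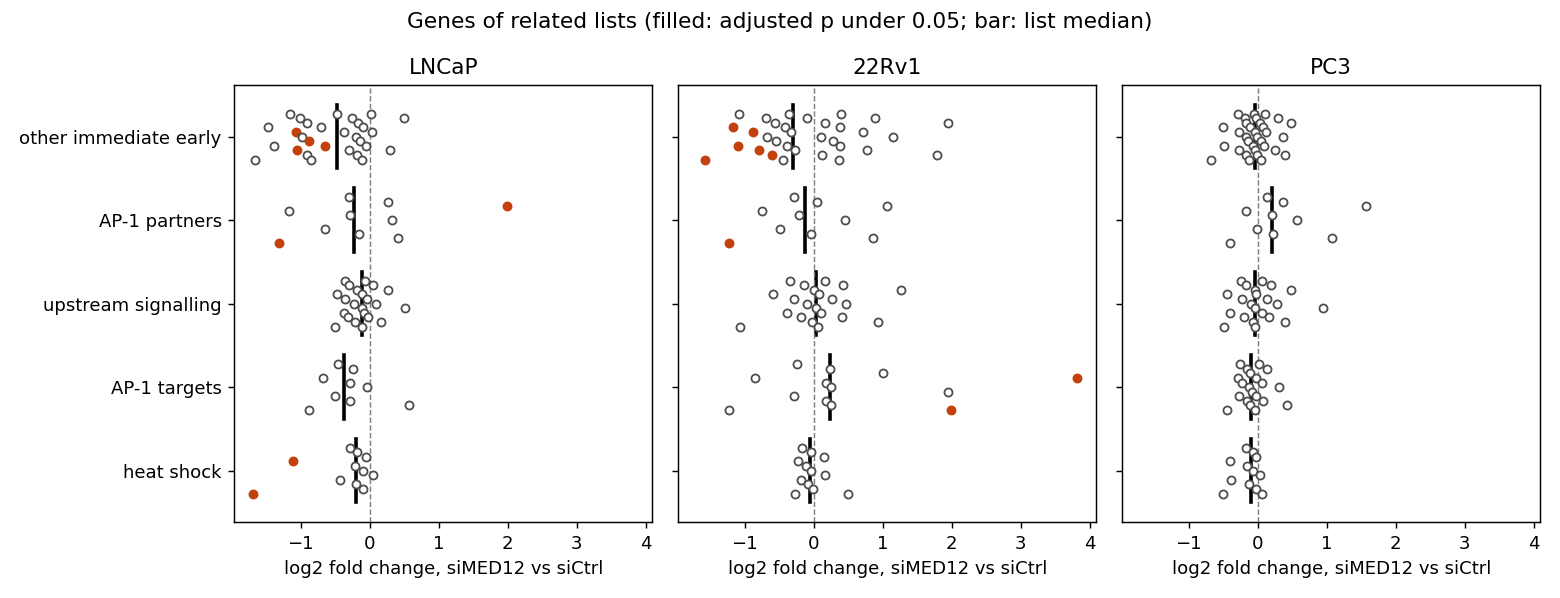
Log2 fold change of siMED12 against siCtrl in each line for the tested genes of 5 lists, without genes at the counting floor; a point is a gene, filled orange at an adjusted p under 0.05, and the bar is the list median. The point farthest right in 22Rv1 is *LAMB3*, with 1 count in its controls. Filled points lie left of 0 for the other immediate early genes in LNCaP (4) and 22Rv1 (6), and none is filled in PC3.

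Heat shock genes and mitochondrial counts moved with the groups in LNCaP. All 12 listed heat shock genes were tested and 2 fell there, where 0.369% of all tested genes fell. These were *DNAJB1* (-1.69), which encodes an HSP40 cochaperone, and *HSPA1B* (-1.11), which encodes an HSP70 chaperone. *HSPA1B* lost its call without siCtrl replicate 2 (adjusted p = 0.0688, edgeR quasi-likelihood). The summed level of the 12 was 7936 to 8225 CPM in LNCaP siCtrl and 6453 to 7411 CPM in LNCaP siMED12. The median log2 fold change was -0.20 in LNCaP, beside -0.0021 over all genes above the floor. None passed in 22Rv1 or PC3, where 1.84% and 0% of all tested genes passed. Mitochondrially encoded genes took 8.60% to 10.1% of counts in LNCaP siCtrl and 10.3% to 12.85% in LNCaP siMED12. Their part in the falls of *JUND*, *ATF3* and *FOS* was not tested.

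The labels do not say that equal replicate numbers share a culture. In LNCaP the numbers were taken as pairing because same-numbered libraries deviated together in these data. With the replicate number as a block the 3 LNCaP members kept their calls, at log2 fold changes of -1.22 for *JUND* (adjusted p = 1.37e-09), -1.68 for *ATF3* (3.16e-05) and -3.05 for *FOS* (0.00121) by the edgeR quasi-likelihood test. The number of genes called in LNCaP then went from 44 to 117, and the 44 were all among them.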

How the data were processed

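Spheroids of 3 cell lines gave 16 BRB-seq libraries, which the labels place in 6 groups by line and siRNA. The authors counted reads with STARsolo (version not given in the sources used here) against Gencode release 43 on GRCh38.p13, and no source says if molecular identifiers were collapsed. The deposited counts are raw whole numbers. The deposited log2 CPM values were made by the authors from those counts, and recomputing them gave the same values to within 5e-14.

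Testing used edgeR 4.0.16 under R 4.3.3 (glmQLFit in its current form, then glmQLFTest), with all 16 libraries and 6 group means in a single model. The filterByExpr settings were a count of 10 and a total of 15, and scaling was by TMM. The tests were 2-sided, and p-values were adjusted by Benjamini-Hochberg over all 10566 genes of a contrast, with a threshold of 0.05. Standard errors came from the F statistic. The study states at least biological triplicates; where libraries of a group do not stem from separate cultures, p-values measure only their spread. Replicates of a group varied 1.70 to 3.79 times as much as 2 samplings of 1 pool, so none was a copy. The procedure was tested on simulated data with known changes.

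The members, the 5 gene lists and the naming rule were chosen with earlier results of these data known. The rule named the members, up to 6 genes past the threshold per list and line, and the 3 genes most like each member called under siMED12. Some genes that the rule names are not reported here.

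Same-numbered siCtrl and siMED12 libraries deviated together in LNCaP (r of 0.18, 0.13 and 0.13 over 6720 genes), which was taken as pairing. The lines 22Rv1 and PC3 have only 2 such pairs each (0.19 and 0.25, 0.12 and 0.08), so there the numbers were not taken as pairing. The replicate block, as an alternative, still used the numbers in every line. Carry-over was estimated from genes of at least 100 CPM in 1 line and at most 1% of that in the others (26 for PC3, 8 for 22Rv1 and 3 for LNCaP). Alternatives were DESeq2 1.42.0, limma 3.58.1 on the deposited log2 CPM, relative log expression scaling, no filter, a replicate block, the line alone, carry-over subtraction and leaving out each library. The legacy edgeR form was added after seeing the data. Promoters come from RefSeq (GRCh38.p14), and gene positions and exons from Gencode release 44, matched by gene identifier. Strand use in counting is not stated: *FOSB* overlaps *ERCC1* and *JUNB* overlaps *HOOK2* on the opposite strand.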

Additional observations from a re-analysis of the deposited data

How the results depend on the processing

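The 3 LNCaP calls held under relative log expression scaling, the legacy edgeR form, no filter, DESeq2, limma, the replicate block and carry-over subtraction. Fitted alone, LNCaP kept *ATF3* and *JUND*, and *FOS* failed the filter of that smaller fit. Leaving out 1 library left 2 to 3 members called in LNCaP, 0 in 22Rv1 and 0 in PC3. In 22Rv1 the count went from 0 to 1 (*JUND*) without the filter, with the replicate block (log2 -0.57, adjusted p = 0.0105, edgeR quasi-likelihood) and with the line alone. The numbers share 2 pairs only there, so the block is given for its count: all genes called went from 194 to 312 in 22Rv1 and from 0 to 20 in PC3. Without the filter or with the replicate block, the difference between 22Rv1 and LNCaP had 1 member called (*FOS*) and that between PC3 and LNCaP 1 (*JUND*); leaving out 1 library gave 0 to 1 for the latter. For siCtrl PC3 against LNCaP, leaving out 1 library gave 4 to 7. Without the filter 95 genes were called in LNCaP and DESeq2 called 23; in 22Rv1 DESeq2 called 87. Signs turned only for values that had not passed, apart from *PLAU* in 22Rv1 (-0.56 after carry-over subtraction, -0.30 to 2.90 leaving out 1 library). With the block, *FOS* and *JUNB* in 22Rv1 were 0.14 and 0.0449 and *JUN* in PC3 was -0.0273. With PC3 alone *ATF3* was 0.0112. Leaving out 1 library, the log2 values were -0.0208 to 0.29 for *IER2* in LNCaP; -0.48 to 0.16 for *FOS*, -0.48 to 0.18 for *JUNB* and -0.18 to 0.64 for *EGR1* in 22Rv1; -0.32 to 0.26 for *ATF3*, -1.29 to 0.54 for *FOS*, -0.996 to 0.83 for *FOSL2*, -0.26 to 0.95 for *JUN*, -0.24 to 0.0104 for *JUNB* and -0.26 to 0.0657 for *JUND* in PC3; and -0.49 to 0.11 for *JUN* between siCtrl 22Rv1 and LNCaP. *FOSL1* in 22Rv1 gave no value after subtraction or without siMED12 replicate 3, when both groups were at the floor. Few counts limit *FOS* and *EGR1* in LNCaP and *FOSB* in every line.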
